A study of Mus musculus with 16 samples.

Results

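Sorcs2, Sort1 and Sorl1 encode receptors with a Vps10 domain, and this report follows their transcripts in mouse hearts that carry the R502W variant of cardiac myosin-binding protein C or are wild type (WT). The members are the 3 rows, of 14109 genes in the deposited table, that bear these names. They were chosen by the measured level of Sorcs2, which was lower in R502W at both ages, so the genotype differences of the 3 genes are given as descriptions without a test. The other members of the family, Sorcs1 and Sorcs3, were not analysed here. The hearts came from mice of 3 or 18 weeks of age, with 4 libraries each of WT at 3 weeks, R502W at 3 weeks, WT at 18 weeks and R502W at 18 weeks. Heart tissue was used, RNA was polyA-selected and the libraries kept strand. The labels give neither sex, strain nor zygosity of the mice, nor whether each library is a separate animal. The p-values therefore reflect the spread of these libraries alone, which may be technical. The series belongs to a study of hypertrophic cardiomyopathy and asks how genotype and age change cardiac transcripts.

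Vps10 receptors are type I membrane proteins that carry cargo between the trans-Golgi network, endosomes, lysosomes and the cell surface. Sortilin, the product of Sort1, sends progranulin and lysosomal proteins to endosomes and can bind pro-neurotrophins. SorCS2, the product of Sorcs2, is best known in neurons, where it acts with the neurotrophin receptors. SorLA, the product of Sorl1, is also a member of the low-density lipoprotein receptor family and returns the amyloid precursor protein from endosomes to the Golgi. Their tails bind the retromer coat and clathrin adaptors, which set the route of the receptor.

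Levels are given in scaled CPM, the reads of a gene plus 0.5 over an effective library size, in CPM units, and differences are on the scale of log2(scaled CPM + 1). In GRCm38, Sorcs2 (ENSMUSG00000029093) spans chromosome 5 from 36017180 to 36398139 on the minus strand. Sort1 (ENSMUSG00000068747) spans chromosome 3 from 108284082 to 108361511 on the plus strand, and Sorl1 (ENSMUSG00000049313) spans chromosome 9 from 41964720 to 42124297 on the minus strand. All 3 are protein coding, and a value counts reads over the whole gene, so isoforms and exons cannot be told apart. Annotated genes overlap each member, Psapl1 and Mir7689 in Sorcs2, Gm16214 in Sorl1, and Gm12523 and Gm43099 in Sort1, and whether the counting used strand is not given in the sources used here. Recovered reads per library ranged from 17521147 to 30672577. The reads of a library in the members ranged from 103 to 726 for Sorcs2, from 639 to 1687 for Sort1 and from 208 to 782 for Sorl1.

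The libraries carried the markers of heart muscle. All 12 ventricular cardiomyocyte markers were measured, with a summed level between 72750 and 87785 scaled CPM in every library. At 3 weeks the sums were 81964 to 84707 in WT (median 84045) and 74671 to 82104 in R502W (median 77031). At 18 weeks they were 72883 to 87785 (median 85218) and 72750 to 79437 (median 74824). In R502W 1 of the 12 rose and 2 fell at 3 weeks, where 3.13% of all genes rose and 3.30% fell. At 18 weeks 1 rose and 1 fell, where 5.60% rose and 5.10% fell. Atrial markers varied widely within the groups: the summed level of the 4 markers (Mybphl, Sln, Myl4 and Myl7) came to 2.86 in R502W 3 weeks sample 1 and 209 to 863 in the R502W libraries at 18 weeks. WT 18 weeks sample 2 (787) also stood far above the other WT libraries of that age (33.1 to 188). Calls of the members, and genotype calls of the named partner genes, were checked without both of these libraries and with the atrial markers in the model. Where either made or ended such a call, this is given beside it. Calls of marker genes, of the neighbours of Sorcs2 and of partner genes with age were not checked in this way.

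Sorcs2 was the member with the largest genotype difference. At 3 weeks its level was 27.8, 28.7, 32.7 and 27.7 scaled CPM in WT samples 1 to 4, and 17.9, 13.7, 16.7 and 13.4 in R502W samples 1 to 4. Every R502W library lay below every WT library of that age. The WT mean was 29.2 ± 2.40 (SD, n = 4) and the R502W mean 15.4 ± 2.24 (SD, n = 4), which is 52.7% of the WT level. The difference was -0.89 on the log2 scale (SE 0.18), the 19th lowest of 14109 genes. Over all genes, 6.93% were lower in R502W at 3 weeks without overlap between the libraries.

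At 18 weeks Sorcs2 stood at 26.3, 13.9, 18.5 and 22.7 scaled CPM in WT samples 1 to 4, and at 9.72, 10.9, 5.69 and 6.18 in R502W samples 1 to 4. The genotypes again did not overlap, and WT sample 2 (13.9) came nearest to the highest R502W library (10.9). The means were 20.4 ± 5.34 (SD, n = 4) and 8.13 ± 2.59 (SD, n = 4), or 39.9% of WT. The difference was -1.24 (SE 0.18), the 7th lowest of all genes, where 6.41% of all genes were lower without overlap. At both ages, 1.88% of all genes were lower in R502W without overlap, Sorcs2 by the choice of the members among them.

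**Figure D1:**
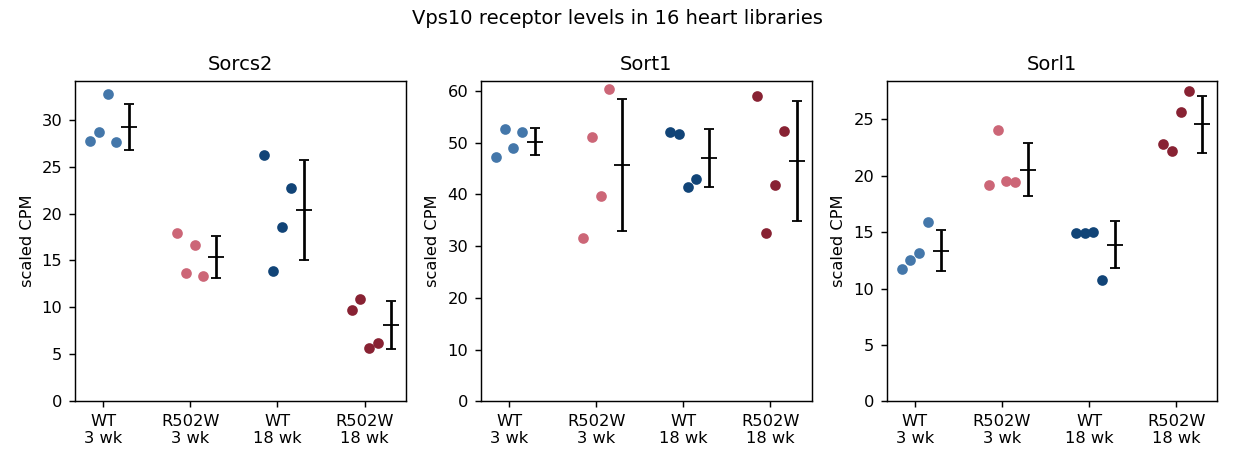
Levels of Sorcs2, Sort1 and Sorl1 in scaled CPM (y axes from 0) in each library of the 4 groups, with the mean and SD (n = 4) beside the points. Sorcs2 is lower and Sorl1 higher in every R502W library than in every WT library of the same age, and the Sort1 libraries overlap.

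Sorcs2 also fell with age in both genotypes. In R502W it fell by 0.88 on the log2 scale from 3 to 18 weeks (SE 0.18, limma adjusted p = 0.000953), and the 4 libraries at 18 weeks lay below the 4 at 3 weeks. In WT it fell by 0.53 (SE 0.18, limma adjusted p = 0.0327), again without overlap, the highest library at 18 weeks (26.3) lying just under the lowest at 3 weeks (27.7). With age 30.2% of all genes were called in WT and 35.8% in R502W, of which those that fell made up 14.4% and 17.3% of all genes, and 13.5% and 16.1% were lower without overlap. The age comparisons use the same libraries as the genotype comparisons and are not independent of them. The call in R502W held in all 29 alternatives, with an adjusted p of at most 0.00485. The call in WT was lost in 7 of 29 alternatives. Among them were the fits without WT 18 weeks sample 2 (-0.37, limma adjusted p = 0.116) or sample 3 (-0.50, limma adjusted p = 0.0718), and without WT 3 weeks sample 1 (-0.56, limma adjusted p = 0.0513), sample 2 (-0.54, limma adjusted p = 0.0570) or sample 3 (-0.48, limma adjusted p = 0.0869). It was lost as well without both libraries apart in atrial markers (-0.37, limma adjusted p = 0.114).

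In order of the means, Sorcs2 was highest in WT at 3 weeks, then in WT at 18 weeks, in R502W at 3 weeks and in R502W at 18 weeks. WT at 18 weeks (13.9 to 26.3) and R502W at 3 weeks (13.4 to 17.9) overlapped, and the other neighbours in this order did not. The genotype difference was larger at 18 weeks by 0.35 on the log2 scale (interaction -0.35, SE 0.26). The choice of Sorcs2 used the genotype differences at both ages, so their difference carries no test. No change of the genotype difference with age is drawn from it. Over all genes, limma called 11 interactions (0.0780%; 0.0638% higher and 0.0142% lower), and the count ran from 0 to 106 under the alternatives, with 1496 genes at an unadjusted p under 0.05.

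Sorl1 moved the other way. At 3 weeks it was at 11.7, 12.6, 13.1 and 15.9 scaled CPM in WT samples 1 to 4 and at 19.1, 24.03, 19.5 and 19.4 in R502W samples 1 to 4. Means were 13.3 ± 1.81 (SD, n = 4) and 20.5 ± 2.34 (SD, n = 4), a level 53.9% higher in R502W (log2 difference 0.59, SE 0.11). All 4 R502W libraries were above all 4 WT libraries, and 7.03% of all genes were higher at 3 weeks without overlap.

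At 18 weeks Sorl1 was at 14.96, 14.89, 15.04 and 10.7 scaled CPM in WT samples 1 to 4 and at 22.8, 22.2, 25.6 and 27.6 in R502W samples 1 to 4. The R502W mean of 24.5 ± 2.51 (SD, n = 4) was 76.5% above the WT mean of 13.9 ± 2.12 (SD, n = 4), with a log2 difference of 0.78 (SE 0.11). The groups were again apart, and 7.30% of all genes were higher at 18 weeks without overlap. At both ages 2.41% of all genes were higher without overlap. Sorl1 ranked 239th from the top of all log2 differences at 3 weeks and 181st at 18 weeks.

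Age made little difference to Sorl1 in WT (0.05, SE 0.11, limma adjusted p = 0.775). In R502W the level at 18 weeks was higher by 0.25 (SE 0.11, limma adjusted p = 0.0970), which did not pass the test, and the libraries of the ages overlapped. With age 15.8% of all genes rose in WT and 18.5% in R502W. The call for R502W was made without R502W 3 weeks sample 2 (0.32, adjusted p = 0.0452), the highest library of its group. The interaction was 0.20 (SE 0.16, limma adjusted p = 0.692). By mean level the R502W groups came first, 18 before 3 weeks, and the WT groups at 18 and 3 weeks, which overlapped, came last.

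Sort1 had nearly equal means in the 4 groups and differed mostly between libraries of R502W. It was at 47.2, 52.6, 48.9 and 52.0 scaled CPM in WT samples 1 to 4 and at 31.5, 51.1, 39.6 and 60.4 in R502W samples 1 to 4 at 3 weeks. At 18 weeks it was at 52.0, 51.7, 41.5 and 42.9 in WT and at 59.0, 32.6, 41.9 and 52.2 in R502W. The coefficient of variation was 5.14% and 11.9% in WT at 3 and 18 weeks, and 27.9% and 25% in R502W. The R502W mean was 91.0% of WT at 3 weeks (log2 difference -0.17, SE 0.17) and 98.7% at 18 weeks (-0.05, SE 0.17), and the genotypes overlapped at both ages. Neither the age difference in WT (-0.10, SE 0.17, limma adjusted p = 0.709) nor that in R502W (0.03, SE 0.17, limma adjusted p = 0.914) passed the test. The interaction was 0.13 (SE 0.24, limma adjusted p = 0.882). All neighbours in the order of the 4 groups overlapped.

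**Figure D2:**
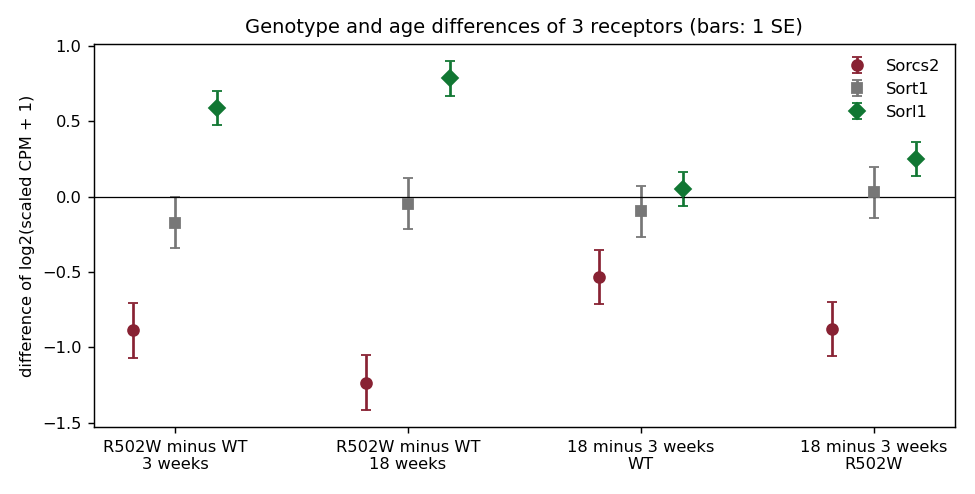
Genotype differences at 3 and 18 weeks and age differences in WT and R502W, as differences of log2(scaled CPM + 1), with bars of 1 SE from the limma fit of all 16 libraries. Sorcs2 is below 0 in the 4 comparisons, Sorl1 is at 0.59 and 0.78 for genotype, and the SE bars of Sort1 reach or nearly reach 0 throughout.

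Per kilobase of annotated exon, which allows levels to be compared between genes, the order of the receptors differed between the groups. Sort1 was the highest of the 3 in all 16 libraries, and at 3 weeks its WT mean was 6.63 ± 0.341 (SD, n = 4) and its R502W mean 6.03 ± 1.68 (SD, n = 4) scaled CPM per kilobase. Sorcs2 was above Sorl1 in all 4 WT libraries at 3 weeks and in all 4 at 18 weeks. In R502W it was above Sorl1 in 2 of 4 libraries at 3 weeks and in 0 of 4 at 18 weeks. The ratio of Sorcs2 to Sorl1 per kilobase averaged 2.85 ± 0.427 for WT against 0.980 ± 0.212 for R502W at 3 weeks. At 18 weeks it averaged 1.94 ± 0.680 against 0.439 ± 0.179 (SD, n = 4 throughout). Of the summed level of the 3 receptors per kilobase, Sorcs2 made up 29.8% in WT at 3 weeks and 10.3% in R502W at 18 weeks. Sorl1 made up 10.6% and 23.9% in the same groups. Exon lengths are the union of all annotated exons, 8802 bases for Sorcs2, 7569 for Sort1 and 11321 for Sorl1, which may exceed the length of the transcripts in the heart.

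Of the members, RefSeq's promoter table for GRCm38.p6 gave windows for 2 starts of Sorl1, the member with a higher level in R502W. Shown are the 250 bases before the outer start (chr9:42124298-42124547, minus strand, 5′ to 3′), since the bases after that start were found in a GENCODE transcript and those after the inner start were not. Capitals mark GGGCGG, the GC box bound by SP1-like factors, searched on both strands.
Sorl1 promoter: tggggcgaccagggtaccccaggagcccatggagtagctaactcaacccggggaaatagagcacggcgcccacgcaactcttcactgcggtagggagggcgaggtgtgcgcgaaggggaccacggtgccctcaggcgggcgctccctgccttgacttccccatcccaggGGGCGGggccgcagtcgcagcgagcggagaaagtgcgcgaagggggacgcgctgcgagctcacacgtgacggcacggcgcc
The window held 69.6% G and C and 26 CpG, against medians of 52.4% and 6 over 32851 promoter windows of this length. It held 1 GGGCGG, found in 32.7% of all windows, and 1 CANNTG (the E box), found in 66.2%. It held 0 matches to the TATA box (TATAAA), found in 12.4% of windows. It also held 0 to the ETS motif (CCGGAAG), found in 6.91%, and 0 to the cAMP response element (TGACGTCA), found in 1.55%. The window of the inner start (chr9:42077214-42077463, minus strand) held 47.2% G and C, 9 CpG and 0 matches to any of these motifs. These matches describe letters and not binding, and the values per gene do not tell the starts apart.

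Sort1 varied with the atrial markers among the libraries of R502W. Within R502W at 3 weeks its order over the libraries was that of the mean log2 level of the 4 atrial markers: 0.62 in sample 1, 5.26 in sample 3, 6.93 in sample 2 and 7.10 in sample 4. Within R502W at 18 weeks the order was again the same, from 5.27 in sample 2 through 6.46 in sample 3 and 7.14 in sample 4 to 7.28 in sample 1. In WT at 3 weeks it was not, as sample 2 had the lowest atrial mean (4.70) and the highest Sort1 level. In WT at 18 weeks it was not either, as sample 1 (atrial mean 5.16) had slightly more Sort1 than sample 2 (7.15), and sample 4 (2.76) more than sample 3 (2.95). With the group means in the model, Sort1 rose by 0.12 on the log2 scale for each log2 unit of the atrial mean (SE 0.02, limma adjusted p = 0.0255). On the same scale such a slope was called for 66 genes, or 0.468% of all genes (0.447% positive and 0.0213% negative), and this test was chosen after the values were seen. The call was lost without R502W 3 weeks sample 1 (slope 0.13, adjusted p = 0.150), sample 2 (0.12, adjusted p = 0.0560) or sample 4 (0.10, adjusted p = 0.0835) of that group, and without both libraries that stood apart (0.21, limma adjusted p = 0.106). The slope of Sorcs2 was -0.08 (SE 0.03, limma adjusted p = 0.522) and that of Sorl1 was 0.04 (SE 0.02, limma adjusted p = 0.661).

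When the atrial mean was added to the model, the genotype differences of Sorcs2 were -0.93 (SE 0.17) at 3 weeks and -1.08 (SE 0.18) at 18 weeks, and those of Sorl1 were 0.61 (SE 0.11) and 0.71 (SE 0.12). Those of Sort1 were -0.10 (SE 0.11) and -0.29 (SE 0.12), the latter farther from 0 than without the atrial mean. Over all 29 alternatives the Sort1 difference at 18 weeks took either sign, from -0.29 to 0.11. In whole tissue, a lower level from fewer cells of a type cannot be told apart from less RNA per cell.

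**Figure D3:**
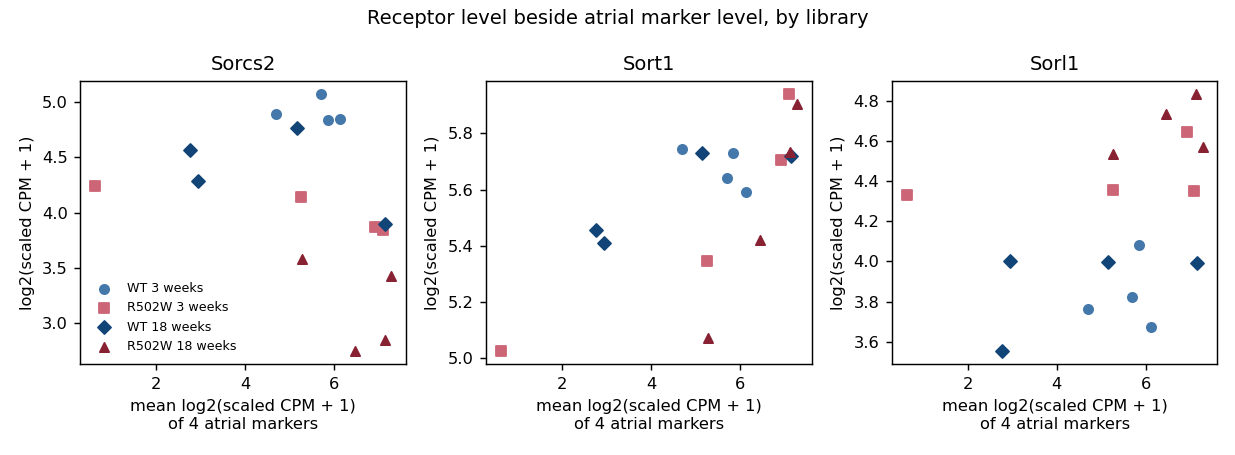
Level of each receptor as log2(scaled CPM + 1) against the mean log2(scaled CPM + 1) of 4 atrial markers, 1 point per library, with a symbol for each of the 4 groups. Sort1 is lowest in R502W 3 weeks sample 1, whose atrial mean is 0.62. It is highest in R502W 3 weeks sample 4 (atrial mean 7.10), followed by R502W 18 weeks sample 1 (7.28). In WT 18 weeks sample 2 (7.15) it lies within the range of WT at 3 weeks. Sorcs2 and Sorl1 separate by genotype within each age.

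Among the other marker lists, stressed cardiomyocyte genes were higher in R502W at both ages, as Sorl1 was, while Sorcs2 was lower. The sum of Myh7, Nppa, Nppb, Acta1, Ankrd1 and Xirp2, transcripts of the fetal and loaded cardiomyocyte, ranged at 3 weeks from 1067 to 1496 scaled CPM for WT and from 2966 to 3789 for R502W. At 18 weeks it was 1974 to 3115 in WT and 9050 to 14607 in R502W, and 5 of 6 members rose at 3 weeks and 6 of 6 at 18 weeks. Over all genes 3.13% rose and 3.30% fell at 3 weeks, and 5.60% rose and 5.10% fell at 18 weeks. Of 15 marker lists, this was the 1 whose sums did not overlap between genotypes at 3 weeks. At 18 weeks the sums of the fibroblast list (1587 to 1695 in WT, 1763 to 1959 in R502W; 2 of 10 rose) and of the neuron list (8.07 to 8.53 in WT, 9.43 to 12.4 in R502W) were also higher. The sum of the endocardial list overlapped (58.2 to 89.5 in WT, 86.4 to 102.7 in R502W at 18 weeks), and 2 of its 5 members rose at 18 weeks, Npr3 by 0.60 and Plvap by 0.61. Of 5 smooth muscle markers 1 fell at 18 weeks, Smtn by 0.28. The sum of the erythroid list was lower in R502W (305 to 638 in WT, 211 to 273 in R502W; 0 of 5 called). Of 8 neuron markers 3 were measured and 5 were not analysed here, and 1, Uchl1, rose at both ages. The Schwann and glial list, of which 5 of 6 were measured, summed at 3 weeks to 13.6 to 15.5 for WT and 9.15 to 17.2 for R502W, with 0 members called at either age. The part of these markers in the levels of Sorcs2 and Sorl1 was not tested.

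The slow myosin heavy chain, Myh7, was lowest in WT at 3 weeks (10.9 to 21.0), where Sorcs2 was highest (27.7 to 32.7). Myh7 was highest in R502W at 18 weeks (1817 to 4075), where Sorcs2 was lowest (5.69 to 10.9). R502W at 3 weeks (46.1 to 234) and WT at 18 weeks (64.3 to 239) overlapped in Myh7. Single libraries did not follow this order strictly. In R502W at 18 weeks Sorcs2 was lowest in sample 3 (5.69), where Myh7 was also the lowest of that group (1817), and nearly as low in sample 4 (6.18), where Myh7 was the highest (4075). WT 18 weeks sample 4 held more Myh7 (239) than R502W 3 weeks sample 4 (46.1), with Sorcs2 at 22.7 and 13.4. These libraries differ in both genotype and age. A link between Sorcs2 and Myh7 was not tested.

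The 4 genes whose profile over the 16 libraries lay nearest to that of Sorcs2 were Pla2g5, Emilin2, Cngb3 and Ppip5k2. Nearness was the root mean square difference between log2 profiles centred on each gene's mean, over 12352 genes with a mean of at least 1 and an established name. It was 0.26 for Pla2g5 and 0.31 for Emilin2, Cngb3 and Ppip5k2, against a median of 0.72 over the genes compared. Sort1 stood at 0.73 and Sorl1 at 1.05. The mean of Sorcs2 in R502W at 18 weeks was 27.8% of its mean in WT at 3 weeks, and those of the 4 genes were 26.4% to 42.5%. Cngb3, a cyclic nucleotide-gated channel subunit at a low level, went from 5.79 ± 0.963 to 2.45 ± 0.449 with genotype at 3 weeks and from 3.89 ± 0.459 to 1.53 ± 0.484 at 18 weeks (SD, n = 4). Pla2g5, a secreted phospholipase, went from 36.7 ± 4.90 to 22.8 ± 4.19 and from 29.1 ± 4.32 to 15.1 ± 4.80 (SD, n = 4). These values follow from the choice by likeness and carry no test.

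**Figure D4:**
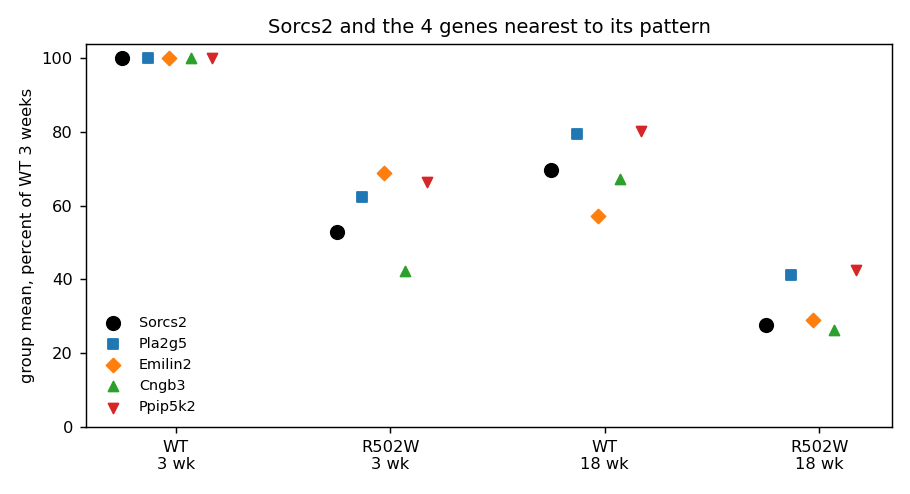
Group means of Sorcs2 and of the 4 genes nearest to its pattern, each as a percent of its own mean in WT at 3 weeks (y axis from 0). Sorcs2 is at 52.7%, 69.7% and 27.8% in R502W at 3 weeks, WT at 18 weeks and R502W at 18 weeks, and the 4 genes lie between 26.4% and 42.5% in the last group.

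The genes that flank Sorcs2 on chromosome 5 were tested for genotype like all others. Of the 15 other measured genes within 500 kb, 1 rose and 0 fell at 3 weeks, with a median log2 difference of -0.03, where 3.13% of all genes rose and 3.30% fell. At 18 weeks 1 rose and 1 fell, with a median of 0.00, where 5.60% of all genes rose and 5.10% fell. The gene that fell was the predicted gene Gm43860 (-0.57, limma adjusted p = 0.0448). The gene that rose at both ages was Cpz, a secreted carboxypeptidase (0.55, limma adjusted p = 0.0236 at 3 weeks and 0.46, limma adjusted p = 0.0450 at 18 weeks), at a mean of 0.230 to 2.45 scaled CPM over the groups. The nearest neighbours, Afap1, an actin-binding protein (0.14, limma adjusted p = 0.315 at 3 weeks and 0.00, limma adjusted p = 0.989 at 18 weeks), and Grpel1, a mitochondrial import factor (-0.08, limma adjusted p = 0.514 and -0.02, limma adjusted p = 0.842), were not called.

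The partners of the receptors were followed through 81 measured genes in 6 lists, which were chosen with earlier results of these data known. At 3 weeks 6.43% of all genes were called and at 18 weeks 10.7%. At 3 weeks 5 of these 81 rose (6.17%) and 1 fell (1.23%), where 3.13% of all genes rose and 3.30% fell. At 18 weeks 6 rose (7.41%) and 3 fell (3.70%), where 5.60% of all genes rose and 5.10% fell. The median log2 difference was 0.01 at 3 weeks and 0.03 at 18 weeks, against 0.00 over all genes at either age. The interaction of genotype and age was called for 0 of 81.

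Among ligands and cargo, 2 of 17 rose at each age and 0 fell. Of all genes, 3.13% rose and 3.30% fell at 3 weeks, and 5.60% rose and 5.10% fell at 18 weeks. Bdnf, brain-derived neurotrophic factor, whose precursor is a ligand of SorCS2 and sortilin, averaged 4.78 ± 0.718 for WT against 9.06 ± 1.72 for R502W at 3 weeks. At 18 weeks it averaged 7.41 ± 3.36 against 12.4 ± 1.22 (SD, n = 4 throughout). It rose by 0.79 (SE 0.20, limma adjusted p = 0.0238) and by 0.75 (SE 0.20, limma adjusted p = 0.0221). At 3 weeks its call was lost in 4 of 29 alternatives, those without WT sample 3 or 4 or R502W sample 2 or 4 of that age (limma adjusted p up to 0.0863). At 18 weeks it was lost in 6 of 29, among them those without WT sample 1 or 2 or R502W sample 2 or 3 of that age (limma adjusted p up to 0.0871) and that without both libraries apart in atrial markers (limma adjusted p = 0.0824). Clu, the extracellular chaperone clusterin, rose by 0.40 (limma adjusted p = 0.00534) and 0.39 (limma adjusted p = 0.0038). Its means were 187 ± 11.5 for WT and 248 ± 25.4 for R502W at the younger age, and 456 ± 43.8 and 597 ± 48.2 at the older (SD, n = 4). Not called were the sortilin cargo progranulin, Grn (0.09 and 0.13), the amyloid precursor gene App (0.14 and 0.12) and lipoprotein lipase, Lpl (-0.19, and -0.25 with limma adjusted p = 0.0525). At 18 weeks Lpl nevertheless lay at 5556 to 6185 in WT and 4328 to 5457 in R502W, without overlap. Of all genes, 6.41% were lower without overlap at that age. Lpl was called lower in 8 of 29 alternatives, among them DESeq2 (adjusted p = 0.00453), edgeR (adjusted p = 0.0328) and limma with a robust spread (adjusted p = 0.0197). Limma also called it without R502W 3 weeks sample 1 (adjusted p = 0.0493), WT 18 weeks sample 2 (adjusted p = 0.0392), R502W 18 weeks sample 3 (adjusted p = 0.0372) or both libraries apart in atrial markers (adjusted p = 0.0319). Over all 29 alternatives the Lpl difference at 18 weeks ranged from -0.30 to -0.11 (limma adjusted p up to 0.467). At 3 weeks it took either sign, from -0.24 to 0.02.

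Among co-receptors 0 of 6 were called at 3 weeks, and 1 rose and 1 fell at 18 weeks. Of all genes, 6.43% were called at 3 weeks, and 5.60% rose and 5.10% fell at 18 weeks. Lifr, the leukaemia inhibitory factor receptor, went from a WT mean of 76.7 ± 12.1 to an R502W mean of 48.5 ± 5.14 (SD, n = 4) at 18 weeks. It fell by 0.64 (SE 0.10, limma adjusted p = 0.000304) and differed by -0.30 at 3 weeks (limma adjusted p = 0.0828). The difference at 3 weeks was called in 5 of 29 alternatives, among them those without WT 18 weeks sample 2 (limma adjusted p = 0.0490) and without both libraries apart in atrial markers (-0.35, limma adjusted p = 0.0299). Its signalling partner Il6st, gp130, rose by 0.19 at 18 weeks (limma adjusted p = 0.0286), a call lost in 9 of 29 alternatives, among them those without WT sample 2 or 4 or R502W sample 1, 2 or 4 of that age (adjusted p up to 0.0737). It was also lost without both libraries apart in atrial markers (limma adjusted p = 0.0737) and with the atrial mean in the model (limma adjusted p = 0.0683). The neurotrophin receptors Ntrk2 (0.11 and 0.02) and Ntrk3 (0.35 and 0.15) were not called and lay at 0.467 to 1.77 and at 0.821 to 6.06 scaled CPM over the libraries, and Ngfr was not analysed here.

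The retromer and adaptors move the receptors between compartments. Of 13 retromer and sorting nexin genes, 0 were called at 3 weeks and 1 rose at 18 weeks. Over all genes, 6.43% were called at 3 weeks and 5.60% rose at 18 weeks. The retromer core genes Vps35 (-0.04 and 0.00), Vps26a (-0.03 and 0.03) and Vps29 (0.14 and 0.16) were not called. Snx5, a membrane-bending sorting nexin, rose by 0.27 at 18 weeks (limma adjusted p = 0.0245), a call lost in 6 of 29 alternatives, among them those without WT sample 1 or 2 or R502W sample 1, 2 or 3 of that age (adjusted p up to 0.0856) and that without both libraries apart in atrial markers (limma adjusted p = 0.0679). Of 22 clathrin adaptor and GGA genes, 2 rose at 3 weeks and 1 at 18 weeks, beside 3.13% and 5.60% of all genes. These were the adaptor subunits Ap1b1 (0.23, limma adjusted p = 0.0444) and Ap2b1 (0.21, limma adjusted p = 0.0470) at 3 weeks, and the clathrin light chain Cltb at 18 weeks (0.26, limma adjusted p = 0.00447). The call of Ap1b1 was lost in 10 of 29 alternatives (limma adjusted p up to 0.108), among them those without any 1 of the 4 WT libraries or of R502W samples 2, 3 and 4 at 3 weeks, or of R502W samples 1 and 3 at 18 weeks, and the fit with the replicate number as a block (limma adjusted p = 0.0650). That of Ap2b1 was lost in 17 of 29 (limma adjusted p up to 0.168), among them those without any 1 of the 4 WT libraries or of R502W samples 1, 2 and 4 at 3 weeks, or of WT samples 1, 3 and 4 and the 4 R502W libraries at 18 weeks, and the block (limma adjusted p = 0.0666). The adaptors that bind sortilin tails, Gga1 (0.00 and 0.08), Gga2 (0.03 and 0.03) and Gga3 (0.14 and -0.12), were not called.

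Of 12 proteases that mature or shed the receptors, 0 rose at either age, 1 fell at 3 weeks and 0 fell at 18 weeks. Over all genes, 3.13% rose and 3.30% fell at 3 weeks, and 5.60% rose and 5.10% fell at 18 weeks. Pcsk6, a proprotein convertase, fell by 0.44 at 3 weeks (SE 0.11, limma adjusted p = 0.0245), a call lost in 4 of 29 alternatives, those without WT samples 2 or 3 or R502W samples 2 or 3 of that age (adjusted p up to 0.0914). Furin, the convertase that cleaves the propeptide of sortilin, was not called (-0.01 and -0.26). In 4 of 29 alternatives it was called lower at 18 weeks, with the atrial mean in the model (-0.36, limma adjusted p = 0.0244), with DESeq2 (-0.29, adjusted p = 0.0393), and without WT sample 3 (-0.36, limma adjusted p = 0.0171) or sample 4 (-0.34, limma adjusted p = 0.0390) of that age. Not called were the sheddases Adam10 (0.01 and 0.02) and Adam17 (0.13 and -0.08).

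The list of 11 receptors held members of the mannose 6-phosphate and LDL receptor families, which share cargo or structure with SorLA and sortilin. It also held Scarb2, which belongs to neither family. Of the 11, 1 rose at 3 weeks, and 1 rose and 2 fell at 18 weeks. Over all genes, 3.13% rose at 3 weeks, and 5.60% rose and 5.10% fell at 18 weeks. Lrp8, a receptor for reelin and apolipoprotein E, averaged 0.867 ± 0.128 for WT against 2.99 ± 0.902 for R502W at 3 weeks. At 18 weeks it averaged 1.07 ± 0.812 against 4.31 ± 1.30 (SD, n = 4 throughout). It rose by 1.07 (SE 0.22, limma adjusted p = 0.00692) and 1.40 (SE 0.22, limma adjusted p = 0.000397). Over the 29 alternatives the rise ranged from 0.94 to 1.81 at 3 weeks and from 1.25 to 2.08 at 18 weeks. The genotypes did not overlap at 18 weeks (0.523 to 2.27 in WT, 2.93 to 6.06 in R502W) or at 3 weeks (0.704 to 1.02 and 2.13 to 4.16). Of all genes, 7.30% were higher without overlap at 18 weeks, 7.03% at 3 weeks and 2.41% at both ages. Scarb2, the lysosomal receptor of glucocerebrosidase, fell by 0.25 at 18 weeks (limma adjusted p = 0.0114). Lrp4, the agrin receptor, fell by 0.44 (limma adjusted p = 0.0412), a call lost in 10 of 29 alternatives (limma adjusted p up to 0.126), among them those without WT sample 1, 3 or 4 or R502W sample 2 or 3 at 18 weeks, WT sample 2 at 3 weeks or R502W sample 3 at 3 weeks. It was also lost with the atrial mean in the model (-0.38, limma adjusted p = 0.112).

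**Figure D5:**
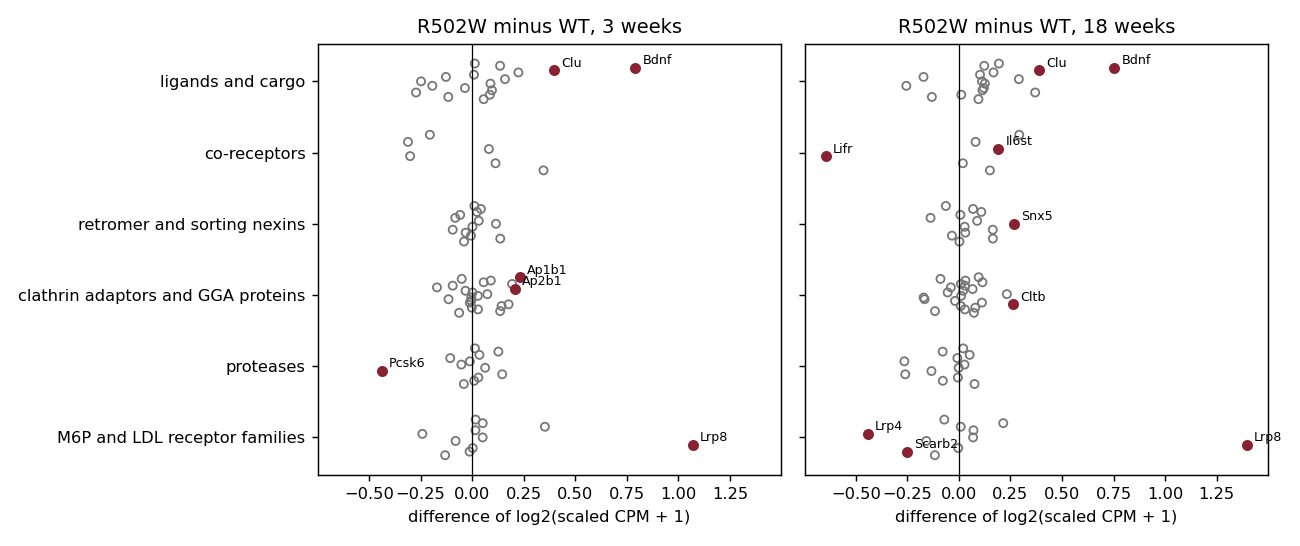
Genotype differences of the 81 measured partner genes at 3 and 18 weeks, as differences of log2(scaled CPM + 1), 1 point per gene in 6 lists. Filled points with names passed the limma test at an adjusted p under 0.05, 6 genes at 3 weeks and 9 at 18 weeks, with Lrp8 (1.07 and 1.40) and Bdnf (0.79 and 0.75) farthest to the right.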

How the data were processed

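Mouse heart RNA was measured in 16 libraries by polyA-selected, strand-specific RNA-seq, per the labels' protocols. The authors deposited a signal per gene, a CPM on a linear scale. Tools named without version in the submitters' processing notes are RSEM, limma, FastQC and cutadapt, and the build is GRCm38. Solving each value for (reads + 0.5) over an effective library size gave whole reads for 100% of values, within 0.01 reads, so the values are equal to reads scaled by edgeR's trimmed mean of M-values. Gene positions and exon lengths came from GENCODE M21, which matched 14103 of 14109 identifiers.

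The model was fitted to log2(value + 1) by limma 3.58.1 (R 4.3.3), using group means over all 16 libraries, empirical Bayes moderation with a trend, two-sided tests and Benjamini-Hochberg adjustment over all genes, with a threshold of 0.05. Genes were not filtered. Alternatives were other pseudocounts, scalings, filters and spread models, a replicate block, an atrial covariate, left-out libraries, and edgeR 4.0.16 and DESeq2 1.42.0 on the recovered reads. Named are the members, a fixed panel, up to 3 called genes with the smallest adjusted p of each partner list and genotype comparison, the genes nearest to Sorcs2 and its called and nearest neighbours. A few of these are left out of the text. The members, lists and alternatives were chosen with earlier results of these data known. The procedure was tested on simulated data. Figures were drawn with matplotlib 3.10.9.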

Additional observations from a re-analysis of the deposited data

Results flagged for a closer look

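Within groups of 4 libraries, the lowest or highest value of a gene stood far from the other 3 in 4 of 120 groups, for the 30 genes named as members or partners; chance gives about 1 in 20. Sorl1 in R502W 3 weeks sample 2 was 24.03 scaled CPM, and its group otherwise spanned 19.1 to 19.5. Sorl1 in WT 18 weeks sample 4 was 10.7, against 14.89 to 15.04. Cltb in R502W 3 weeks sample 1 was 48.1, against 45.0 to 45.2. Scarb2 in R502W 3 weeks sample 3 was 169.8, against 158.6 to 160.3.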

How the results depend on the processing

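Under 29 alternatives the genotype difference of Sorcs2 ranged from -0.96 to -0.83 at 3 weeks and from -1.40 to -1.08 at 18 weeks, and that of Sorl1 from 0.51 to 0.67 and from 0.67 to 0.83. The age difference of Sorcs2 in WT lost its call with a robust spread (-0.53, limma adjusted p = 0.0622) and without both libraries apart in atrial markers (-0.37, limma adjusted p = 0.114), and ranged from -0.66 to -0.37 with single libraries left out. That of Sorl1 in R502W ranged from 0.19 to 0.32 with single libraries left out. The slope of Sort1 on the atrial mean ranged from 0.10 to 0.14 with single libraries left out and was 0.21 without both libraries apart in atrial markers, where the call was lost (limma adjusted p = 0.106).

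With single libraries left out the genes called numbered 484 to 1051 at 3 weeks, 934 to 1497 at 18 weeks and 0 to 82 for the interaction. At 3 weeks the count of 907 was 493 without WT sample 2, 484 without R502W sample 2 and 592 without R502W sample 3. At 18 weeks the count of 1509 was 951 with only the groups compared and 934 without R502W sample 4. For the interaction it was 11, against 0 with a pseudocount of 0.5 or 0.1, 21 with library weights, 0 with the replicate block, 28 with the atrial covariate, 0 with edgeR and 106 with DESeq2, and 1496 genes had an unadjusted p under 0.05. It was 0 without WT 3 weeks sample 3, R502W 3 weeks sample 3 or WT 18 weeks sample 1, and 82 without WT 18 weeks sample 4. The fit of only the groups compared does not apply to the interaction. The causes of these changes were not tested.

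Same-numbered libraries of different groups deviated together (correlation over 0.1) in 1 of 16 pairs, so the sample numbers were not taken as pairs. Under the replicate block the genotype difference of Sorcs2 remained -0.89 and -1.24, and Cltb was also called higher at 3 weeks (0.18, limma adjusted p = 0.0433).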

Other observations

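Partner genes of the receptors were also compared between the ages. Of the 81 measured, 15 rose and 11 fell from 3 to 18 weeks in WT, and 21 rose and 16 fell in R502W, beside 15.8% and 14.4% of all genes in WT and 18.5% and 17.3% in R502W. Clu rose by 1.28 in WT (SE 0.08, limma adjusted p = 1.8e-09) and by 1.27 in R502W (SE 0.08, limma adjusted p = 2.0e-09). Lipoprotein lipase, Lpl, which frees fatty acids from lipoproteins at the vessel wall, rose by 0.54 in WT (limma adjusted p = 6.5e-05) and by 0.48 in R502W (limma adjusted p = 0.000176). Scarb2 rose by 0.41 in WT (limma adjusted p = 4.8e-05) and by 0.17 in R502W (limma adjusted p = 0.0323), and the interaction did not pass the test for it. Lifr fell with age in R502W (-0.33, limma adjusted p = 0.0160) and was not called in WT (0.02, limma adjusted p = 0.914), again without a called interaction.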
